A study of Homo sapiens with 8 samples.

Results

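The 32 genes described here cover cholesterol synthesis, uptake, sterol sensing and export. They were chosen by name, with earlier results of these data known. They are 18 enzymes that build cholesterol and 14 genes that sense, take up, move, store or export it, and all 32 were among the 21059 genes tested. RNA sequencing read their transcripts in MDA-MB-157, an established breast cancer cell line without the estrogen receptor, at 5 mM glucose (low glucose, 4 libraries) and at 25 mM glucose (high glucose, 4 libraries), each for 48 hours. The higher level stands for diabetic blood glucose, and the comparison asks which transcripts differ between the 2 media. Per the study's methods, cells were first held in low glucose and were then given either medium with no serum, so the cells of both groups were serum-starved. The methods add mannitol to the low glucose medium in some experiments, to match osmolarity, and the labels do not say whether these libraries had it, so an effect of osmolarity was not tested. All libraries come from a single line, and since nothing states whether the 4 replicates came from separate experiments, p-values measure only the spread between these libraries.

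Cells make cholesterol from acetyl-CoA, through mevalonate and farnesyl diphosphate to squalene, which is closed into the ring system of lanosterol and then trimmed to cholesterol. When sterols in the membrane of the endoplasmic reticulum fall, SCAP carries the SREBP transcription factors to the Golgi, where they are cut and released to switch on genes of sterol synthesis, while INSIG proteins hold the complex back when sterols are plentiful. The liver X receptors (LXRs) work the other way, since they sense oxidized sterols and switch on transporters that export cholesterol.

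Levels are given in CPM (reads per 1000000), which the authors had corrected for library composition, and an estimated 9721600 to 12482500 reads lie behind each library, so that 3 reads correspond to 0.212 to 0.267 CPM. Of the markers of the line, the receptors ESR1 and PGR were at 0 to 0.170 and 4.33 to 5.95 CPM over all libraries, while ERBB2 was at 62.4 to 65.0 CPM at low and 35.7 to 41.2 CPM at high glucose. The filaments also differed without overlap, with vimentin (VIM) at 4060.0 to 4116 against 2856 to 3282 CPM, KRT8 at 126 to 138 against 76.4 to 101 CPM and KRT18 at 228 to 238 against 156 to 196 CPM. Of the markers of other cells, PTPRC (leukocytes) was at 0 to 0.178 CPM and PECAM1 (endothelium) at 0.911 to 1.24 against 1.51 to 2.84 CPM. The part of these marker differences in the results was not tested. High glucose replicate 1 stood apart from the other libraries along transcript length. Across 11223 genes, its deviation from the mean of its group had a Spearman correlation with transcript length of -0.65, against 0.25 to 0.47 in high glucose replicates 2 to 4 and -0.13 to 0.06 in the low glucose libraries. The results below are therefore also given without this library where a call or a value depends on it.

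At high glucose, transcripts of 16 of the 18 synthesis enzymes were lower and none was higher, while the 14 other members moved in both directions, 5 higher and 4 lower. A gene is called here when its adjusted p is under 0.05 in limma, on log2(CPM + 1), with Benjamini-Hochberg adjustment over all 21059 genes. In total 25 of the 32 members were called, against 46.8% of all genes tested, so the number of calls has to be read in a table where a large share of genes differed. Of all genes, 24.8% were called lower and 22.0% higher. Among the 11297 genes with a mean of at least 5 CPM, a level that 29 of the 32 members reached, 33.3% were called lower and 33.6% higher. The groups did not overlap for 23 of the 32 members, 15 enzymes and 8 others, against 65.0% of the genes of at least 5 CPM. The median log2 change, high minus low, was -0.59 over the 18 enzymes and 0.04 over the 14 other members, against -0.0071 over the genes of at least 5 CPM. Without high glucose replicate 1, 17 enzymes were called lower, and of the others 5 were called higher and 5 lower. A CPM value is a share of all reads from a culture, and fewer cells with a transcript cannot be told apart from less of it per cell.

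**Figure D1:**
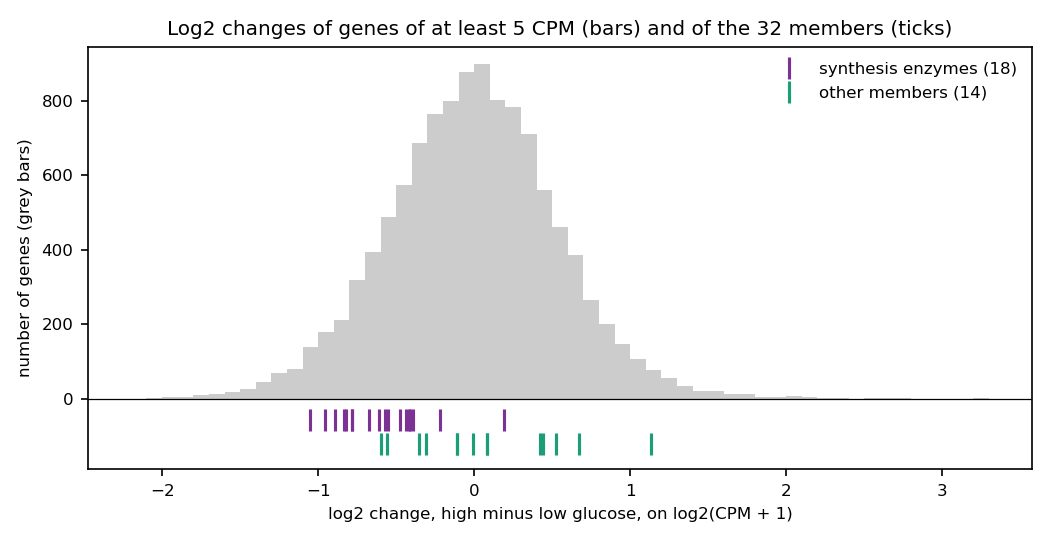
Histogram of the log2 change (high minus low glucose, on log2(CPM + 1), x axis) of the 11297 genes of at least 5 CPM, with the number of genes on the y axis, and below it a tick for each of the 18 synthesis enzymes and each of the 14 other members. The bars lie evenly about 0, all enzyme ticks but 1 (TM7SF2, at 0.19) lie below 0, and the ticks of the other members run from -0.60 to 1.13.

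The promoters of the enzymes share letters that the choice of genes did not use. RefSeq promoter windows (GRCh38.p14, from 250 bases before to 50 bases after each start of transcription, both strands searched) were at hand for 28 of the 32 members, 15 enzymes and 13 others. CCAAT, the box bound by NF-Y, a factor that works next to SREBP at many sterol genes, was in a window of 13 of 15 enzymes (86.7%) and of 7 of 13 other members (53.8%), against 42.4% of the 13093 genes of the table with a window. At least 2 copies in a window were found for 10 of 15 enzymes (66.7%), 3 of 13 others (23.1%) and 15.3% of the genes of the table. At least 3 copies were found for 7 of 15 enzymes (46.7%), for 0 of 13 others and for 5.04% of those genes. In all genes, copies that overlap on opposite strands were counted apart, as in CCAATTGG at -132 in IDI1 and at -113 in NSDHL. IDI1 reached 3 copies only in this way. The mean number of windows per gene was 1.33 for enzymes, 1.38 for others and 1.44 for the table. The sterol regulatory element, spelled TCACNCCAC, was in the windows of 1 member, SREBF2, and in 1.47% of the genes of the table. Its shorter form CACNCCAC, which the longer one contains, was in a window of 5 of 28 members (17.9%), namely IDI1, SC5D, INSIG1, SREBF2 and ABCA1, against 7.93%. The E-box CACGTG was in a window of 2 of 15 enzymes and 3 of 13 others, against 12% of those genes, and the Sp1 box GGGCGG in 14 of 15 and 13 of 13, against 72.0%. These are matches of letters in 1 short window. They do not show binding, and a window without a match says nothing about sites elsewhere.

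Shown here are 6 windows, each 5′ to 3′ on the strand of its gene, with CCAAT, read on either strand, and the sterol regulatory element or its short form in capitals. MVK (chr12:109573544-109573843, plus strand) and NSDHL (chrX:152830813-152831112, plus strand) have the most CCAAT boxes among the members, 5 each, with an overlapping pair counted apart in NSDHL. FDPS (chr1:155308616-155308915, plus strand), whose transcript fell the most among the enzymes, has 3. CYP51A1 (chr7:92134428-92134727, minus strand) is shown because its transcript fell too and its window holds none of the letters in capitals. INSIG1 (chr7:155297628-155297927, plus strand) and SREBF2 (chr22:41832855-41833154, plus strand) are the sensors with the short and the full element.
MVK: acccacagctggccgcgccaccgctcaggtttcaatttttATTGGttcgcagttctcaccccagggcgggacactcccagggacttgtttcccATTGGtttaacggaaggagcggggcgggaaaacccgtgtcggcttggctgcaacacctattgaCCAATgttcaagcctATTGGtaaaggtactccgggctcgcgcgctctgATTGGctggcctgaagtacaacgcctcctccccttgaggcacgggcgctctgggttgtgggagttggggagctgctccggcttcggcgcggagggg
NSDHL: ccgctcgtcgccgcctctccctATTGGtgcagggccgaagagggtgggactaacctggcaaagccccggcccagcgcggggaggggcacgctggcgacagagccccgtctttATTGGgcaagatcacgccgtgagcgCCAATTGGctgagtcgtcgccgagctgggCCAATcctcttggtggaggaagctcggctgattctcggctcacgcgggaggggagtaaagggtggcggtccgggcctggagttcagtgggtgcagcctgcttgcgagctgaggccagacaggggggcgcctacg
FDPS: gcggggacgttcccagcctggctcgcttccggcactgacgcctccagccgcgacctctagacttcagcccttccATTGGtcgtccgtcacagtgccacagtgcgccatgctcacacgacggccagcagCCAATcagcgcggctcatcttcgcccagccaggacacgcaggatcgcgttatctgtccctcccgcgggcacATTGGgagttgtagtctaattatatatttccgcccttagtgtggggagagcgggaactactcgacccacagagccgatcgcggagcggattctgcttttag
CYP51A1: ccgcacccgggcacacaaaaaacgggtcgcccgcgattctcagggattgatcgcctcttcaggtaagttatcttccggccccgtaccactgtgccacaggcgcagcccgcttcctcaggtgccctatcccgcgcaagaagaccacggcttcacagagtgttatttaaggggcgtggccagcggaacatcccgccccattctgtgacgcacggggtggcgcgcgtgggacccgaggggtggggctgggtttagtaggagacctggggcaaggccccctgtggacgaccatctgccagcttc
INSIG1: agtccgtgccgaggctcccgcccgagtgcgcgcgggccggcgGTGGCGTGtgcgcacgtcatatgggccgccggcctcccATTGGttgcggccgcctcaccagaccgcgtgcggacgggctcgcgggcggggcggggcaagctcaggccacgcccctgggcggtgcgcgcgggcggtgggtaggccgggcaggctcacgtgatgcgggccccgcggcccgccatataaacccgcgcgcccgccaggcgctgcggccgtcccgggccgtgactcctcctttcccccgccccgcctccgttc
SREBF2: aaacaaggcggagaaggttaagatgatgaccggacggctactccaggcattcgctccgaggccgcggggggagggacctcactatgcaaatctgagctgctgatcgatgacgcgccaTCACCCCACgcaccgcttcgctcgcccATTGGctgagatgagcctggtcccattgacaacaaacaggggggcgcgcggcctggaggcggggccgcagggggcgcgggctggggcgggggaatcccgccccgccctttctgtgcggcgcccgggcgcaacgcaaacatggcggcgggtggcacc

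All 7 enzymes of the mevalonate part, from acetyl-CoA to farnesyl diphosphate, fell at high glucose, with a median log2 change of -0.79. The largest fall was that of FDPS, which joins isoprene units into farnesyl diphosphate, the branch point to sterols, dolichol and prenylated proteins. FDPS stood at 408, 407, 402 and 391 CPM in low glucose replicates 1 to 4 and at 214, 191, 187 and 184 CPM in high glucose replicates 1 to 4 (the same order is kept below). The groups were far apart, and the transcript fell by 51.8%, from 402 ± 7.8 to 194 ± 13.4 CPM (SD, n = 4 each), with a log2 change of -1.05 (SE 0.048) and an adjusted p of 5.37e-06. Only 2.94% of the genes of at least 5 CPM had a lower change. The window of FDPS printed above holds CCAAT letters at positions -176, -122 and -51 from the start.

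HMGCS1, the cytosolic synthase that makes HMG-CoA, was the most abundant member in CPM at low glucose. Its libraries read 1696, 1686, 1695 and 1660.5 CPM at low glucose and 879, 867, 840.3 and 892 CPM at high glucose. The 4 values within each group lay close together, and the transcript fell by 48.4%, with a log2 change of -0.95 (SE 0.033, adjusted p = 2.0e-06). ACAT2, which condenses acetyl-CoA at the entry to the pathway, was at 232, 235, 229 and 223 CPM against 159, 152, 142 and 148 CPM. It fell by 34.6%, with a log2 change of -0.61 (SE 0.037, adjusted p = 1.74e-05).

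The kinases and the decarboxylase that follow mevalonate were less abundant. MVK, mevalonate kinase, was at 57.7, 59.7, 58.4 and 64.3 CPM at low glucose and at 40.3, 37.3, 32 and 29 CPM at high glucose. Both groups were clear of each other, with a log2 change of -0.79 (SE 0.10, adjusted p = 6.41e-04). PMVK, the next kinase, read 16, 14.3, 12.6 and 15.0 CPM against 12.9, 11.6, 9.9 and 8.98 CPM. Here high glucose replicate 1 lay above low glucose replicate 3, and the log2 change was -0.39 (SE 0.12, adjusted p = 0.0316). The call of PMVK was lost without low glucose replicate 1, 2 or 4 or high glucose replicate 3 or 4, at adjusted p-values of 0.0646 to 0.0813. MVD, the decarboxylase that yields isopentenyl diphosphate, fell from 26.1 ± 0.911 to 14.3 ± 1.63 CPM (SD, n = 4 each), with a log2 change of -0.83 (SE 0.076, adjusted p = 1.12e-04). IDI1, which isomerizes that unit, fell by less, from 346 ± 6.49 to 259 ± 13.8 CPM, with a log2 change of -0.42 (SE 0.040, adjusted p = 1.40e-04).

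In the sterol part, 9 of 11 enzymes fell, with a median log2 change of -0.55, and TM7SF2 and HSD17B7 were not called. DHCR7, which reduces the last double bond on the way to cholesterol, changed the most of this group. It was at 288, 300.3, 289 and 299 CPM at low glucose and at 164, 158, 158 and 153 CPM at high glucose with a wide gap between the groups. Its log2 change was -0.89 (SE 0.026, adjusted p = 1.44e-06), the smallest adjusted p among the members.

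At the entry to the sterols, FDFT1, which makes squalene, fell from 184 ± 3.31 to 138 ± 9.82 CPM (log2 change -0.41). SQLE, the epoxidase that adds oxygen to squalene, was at 455, 458, 459.6 and 456 CPM against 312, 296, 304 and 321 CPM, a log2 change of -0.57 (SE 0.027, adjusted p = 6.89e-06). LSS, which closes the rings to lanosterol, was at 417, 431, 417 and 416 CPM against 264, 251, 231 and 208 CPM, a log2 change of -0.82 (SE 0.072, adjusted p = 9.48e-05). The high glucose values of LSS spread more widely than those at low glucose, and the groups did not overlap.

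Of the enzymes that remove the extra methyl groups of lanosterol, CYP51A1, the demethylase at carbon 14, was at 488, 479.8, 505 and 496 CPM against 322, 305, 299 and 308 CPM. It fell by 37.3%, with a log2 change of -0.67 (SE 0.029, adjusted p = 4.60e-06), in a gene whose window holds no CCAAT. MSMO1, the methyl oxidase at carbon 4, fell from 233 ± 2.42 to 136 ± 12.7 CPM (log2 change -0.78, adjusted p = 6.22e-05), and NSDHL, its partner dehydrogenase, from 68.0 ± 4.32 to 48.5 ± 1.82 CPM (log2 change -0.48, adjusted p = 2.14e-04). HSD17B7, the reductase of that complex, was at 23.7, 21.9, 22.4 and 22.1 CPM against 22.1, 19.7, 20.02 and 15.7 CPM. Its high glucose replicate 1 lay within the low glucose range, and the log2 change of -0.22 did not pass the test (adjusted p = 0.107), whereas without that library it was -0.28 with an adjusted p of 0.0412.

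EBP, the isomerase that moves the double bond of the second ring, was at 182, 176, 167 and 177 CPM against 143, 114, 112 and 112 CPM. High glucose replicate 1 was far above the other 3, though below every low glucose library, and the log2 change was -0.55 (SE 0.083, adjusted p = 0.00136). Without that library it was -0.64, with an adjusted p of 1.80e-05. SC5D, the desaturase that acts next, fell from 69.6 ± 1.05 to 51.2 ± 1.22 CPM (log2 change -0.44, adjusted p = 7.93e-06). TM7SF2, a reductase of the double bond at carbon 14, was the enzyme with the lowest level, at 2.33, 3.23, 2.38 and 3.06 CPM against 3.32, 2.79, 3.13 and 3.82 CPM. These groups overlapped, and TM7SF2 was the only enzyme with a positive log2 change, 0.19 (SE 0.12, adjusted p = 0.233).

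**Figure D2:**
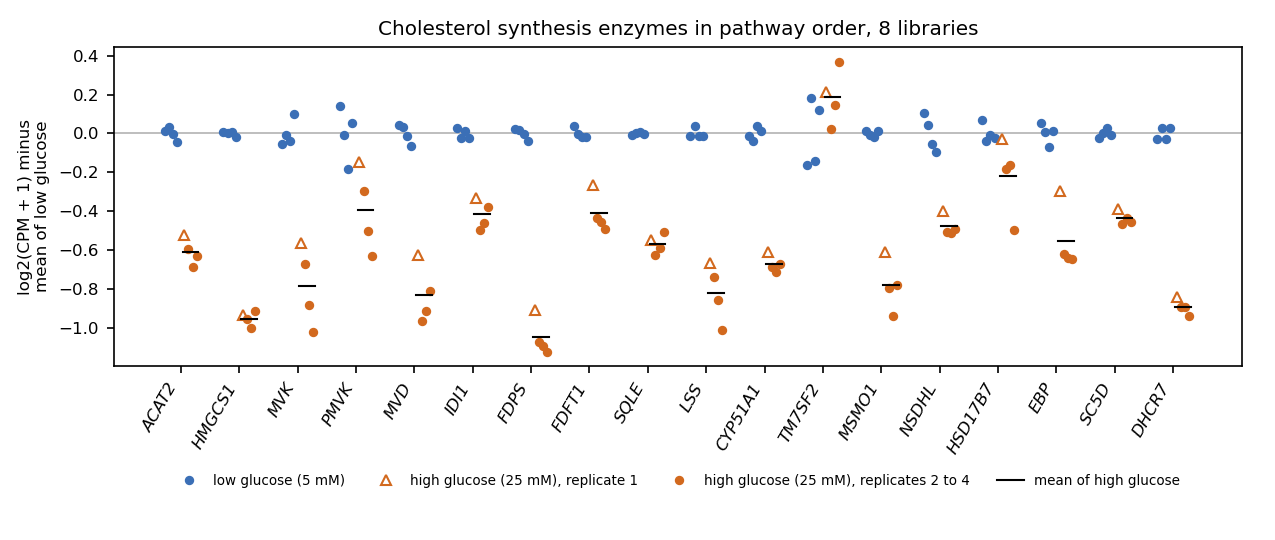
Level of the 18 synthesis enzymes in each of the 8 libraries, in the order of the pathway (x axis), as log2(CPM + 1) minus the mean of the 4 low glucose libraries of that gene (y axis), with a black line at the mean of the 4 high glucose libraries. All high glucose points lie below all low glucose points except for PMVK, TM7SF2 and HSD17B7, and high glucose replicate 1 (open triangle) is the highest high glucose point for 15 of the 18.

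Across the enzymes, high glucose replicate 1 was the highest of the high glucose libraries for 15 of 18 genes and the lowest for none, which places it nearer to the low glucose libraries. Of the 14 other members it was the highest for 8 and the lowest for 2. After a trend with transcript length was removed from each library, the same counts were found, 16 enzymes lower, 5 other members higher and 4 lower, and the median of the enzymes was -0.53. Without this library the median of the enzymes was -0.64. Per kilobase of transcript, the enzymes spanned from 1.74 ± 0.292 (TM7SF2) to 315 ± 3.09 CPM per kb (HMGCS1) at low glucose, with FDPS next to the top at 284 ± 5.5 CPM per kb. At high glucose HMGCS1 was at 163 ± 4.1 and FDPS at 137 ± 9.46 CPM per kb, and HMGCS1 remained the enzyme with the highest level per length. NPC2 had the highest level of all members on this scale, at 632 ± 12.6 CPM per kb at low and 848 ± 86.4 CPM per kb at high glucose.

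Among the 5 genes of sterol sensing, INSIG1, SREBF1 and SREBF2 fell, and INSIG2 and SCAP were not called. INSIG1, which retains the SREBP complex in the endoplasmic reticulum and is itself a target of SREBP, was at 418, 409, 407 and 412 CPM against 301, 275, 271 and 269.9 CPM. The groups were widely separated, with a log2 change of -0.56 (SE 0.037, adjusted p = 2.61e-05). INSIG2, its paralog, was at 12.6 ± 1.23 against 12.6 ± 1.81 CPM (SD, n = 4 each). Its log2 change was -0.0083, with an adjusted p of 1, and it took the other sign, at 0.03 and 0.01, with median-of-ratios and equal total scaling.

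SREBF1, which encodes SREBP-1, the SREBP that favors fatty acid genes, was at 97.5, 102, 96.1 and 109.5 CPM against 78.7, 70.4, 66.7 and 52.7 CPM. Its high glucose values spread widely but stayed below every low glucose value, with a log2 change of -0.60 (SE 0.12, adjusted p = 0.00478). SREBF2, which encodes SREBP-2, the main activator of cholesterol genes and the only one of the 28 members with a window whose letters include the full sterol element, was at 258, 261, 272 and 267 CPM against 248, 246, 247 and 238 CPM. The groups did not overlap, but the level fell by 7.41%, with a log2 change of -0.11 (SE 0.024, adjusted p = 0.00688). SCAP, the escort protein of the SREBPs, was at 30.9 ± 1.39 against 32.9 ± 1.92 CPM, a log2 change of 0.08 that did not pass the test (adjusted p = 0.219). The fit reads transcripts only, and SREBP activity is set by cleavage of the proteins, which these data do not measure.

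Of the 5 genes of uptake, trafficking and esterification, SOAT1, NPC2 and MYLIP rose, STARD4 fell slightly and NPC1 was not called. SOAT1, which esterifies cholesterol for storage in lipid droplets, was at 83.9, 80.8, 85.5 and 80.1 CPM against 138, 128, 131 and 133 CPM. This rise of 60.4% had a narrow spread in both groups and a log2 change of 0.67 (SE 0.031, adjusted p = 5.79e-06), and 90.5% of the genes of at least 5 CPM had a lower change. NPC2, the soluble lysosomal protein that takes up cholesterol freed from lipoproteins and passes it to NPC1, was at 526, 518, 526 and 504 CPM against 802, 674, 656 and 653 CPM. High glucose replicate 1 was far above the other 3, in a gene with a transcript of 821 bases, the shortest among the members. The log2 change of NPC2 was 0.42 (SE 0.068, adjusted p = 0.00198) with this library, 0.35 (adjusted p = 5.74e-05) without it, and 0.54 after removal of the trend with length.

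NPC1, the membrane protein that receives cholesterol from NPC2, was at 55.8, 55.7, 56.9 and 59.2 CPM against 55.0, 67.4, 56.7 and 63.1 CPM. The groups overlapped, and the log2 change of 0.08 did not pass the test (adjusted p = 0.349). MYLIP, an E3 ubiquitin ligase that marks lipoprotein receptors for degradation and is induced by LXR, was at 6.33, 5.3, 5.52 and 4.44 CPM against 7.69, 8.29, 7.59 and 7.02 CPM. Each high glucose library was above each low glucose library, with a log2 change of 0.44 (SE 0.10, adjusted p = 0.00944). STARD4, a cytosolic sterol carrier, was at 46.3, 50.6, 50.03 and 51.3 CPM against 45.5, 45.1, 45.6 and 47.0 CPM. Its groups overlapped through low glucose replicate 1, the log2 change was -0.11 (SE 0.034, adjusted p = 0.0335), and the call was lost under 11 of 16 other settings, among them both other scalings and without high glucose replicate 1 (adjusted p = 0.0637).

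Both transporters that export cholesterol rose, whereas the receptors NR1H3 and NR1H2, which encode LXR-alpha and LXR-beta, were not called. ABCA1, which loads cholesterol onto lipid-poor apolipoprotein, was at 19.0, 18.9, 19.3 and 20.1 CPM against 23.1, 29.2, 29.1 and 32.1 CPM. All high glucose libraries were above all low glucose libraries, and replicate 1 was the lowest of them. The log2 change was 0.52 (SE 0.093, adjusted p = 0.00305), and 0.61 without that library, in the longest transcript among the members (10408 bases). ABCG1, which passes cholesterol to mature lipoprotein particles, was at 1.17, 0.828, 0.425 and 0.728 CPM against 2.61, 3.19, 3.38 and 2.4 CPM. The mean rose from 0.787 ± 0.306 to 2.9 ± 0.465 CPM (SD, n = 4 each), a ratio of 3.68. Its log2 change of 1.13 (SE 0.15, adjusted p = 5.99e-04) understates that ratio because of the pseudocount of 1, and all values lie above the level of 3 reads, though few reads stand behind those at low glucose.

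NR1H2 was at 11.5, 11.8, 10.6 and 12.4 CPM against 13.4, 8.13, 9.24 and 6.8 CPM. NR1H3 was at 4.5, 5.47, 6.63 and 5.03 CPM against 5.93, 3.99, 3.22 and 3.2 CPM. For both receptors high glucose replicate 1 was within or above the low glucose range, whereas replicates 2 to 4 lay below every low glucose library. With all 8 libraries the log2 changes were -0.31 for NR1H2 and -0.35 for NR1H3, with adjusted p-values of 0.207 and 0.171. Without high glucose replicate 1 they were -0.48 and -0.51, with adjusted p-values of 0.0100 and 0.0212, so that library decided whether these 2 genes were called.

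**Figure D3:**
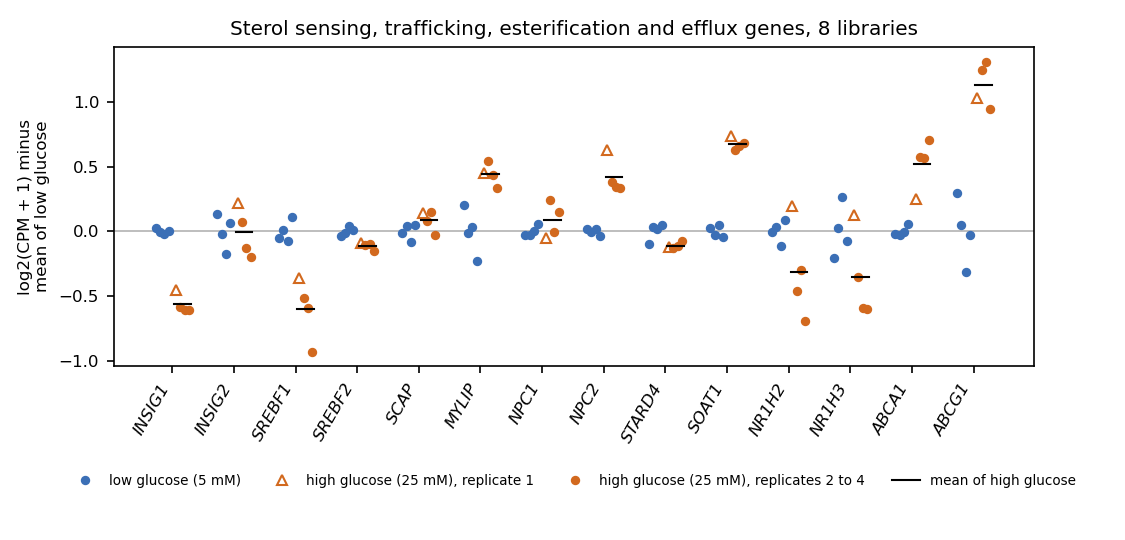
Level of the 14 genes of sensing, uptake, trafficking, esterification, LXR and efflux in each of the 8 libraries (x axis: genes), as log2(CPM + 1) minus the mean of the 4 low glucose libraries of that gene (y axis), with a black line at the mean of the 4 high glucose libraries. INSIG1, SREBF1 and SREBF2 lie wholly below the low glucose points and MYLIP, NPC2, SOAT1, ABCA1 and ABCG1 wholly above them, and high glucose replicate 1 (open triangle) stands apart for NR1H2, NR1H3, NPC2 and ABCA1.

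Partners of the same step were also compared within each library, as the log2 ratio of their CPM + 1, which does not depend on the scaling between libraries except through the pseudocount. Each of 5 ratios was compared by an exact permutation test (2-sided, 70 assignments, p never below 0.0286), with p-values also adjusted over the 5. SREBF1 to SREBF2 was at -1.38 ± 0.0888 at low and -1.87 ± 0.213 at high glucose, a difference of -0.49 (exact p = 0.0286, adjusted p = 0.0476), so the ratio shifted towards SREBF2. Without low glucose replicate 1, 2 or 4 its exact p was 0.0571. INSIG1 to INSIG2 was at 4.92 ± 0.117 at low and 4.37 ± 0.130 at high glucose, a difference of -0.55 (exact p = 0.0286, adjusted p = 0.0476), with no overlap between the groups. NPC1 to NPC2 differed by -0.34 (exact p = 0.0286, adjusted p = 0.0476), with high glucose replicate 1 at -3.84 and the other 3 high glucose libraries at -3.51 to -3.30, and without replicate 1 the difference was -0.22 (exact p = 0.0286). With any 1 of the low glucose libraries left out, the exact p of this ratio was 0.0571 to 0.0857. ABCA1 to ABCG1 differed by -0.61 (exact p = 0.0571, adjusted p = 0.0714), with high glucose replicate 4 at 3.28, above low glucose replicate 1 at 3.21, and with a pseudocount of 0.1 the difference was -1.27 (exact p = 0.0286). NR1H3 to NR1H2 differed by -0.04 (exact p = 0.8), and the 2 groups overlapped throughout.

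**Figure D4:**
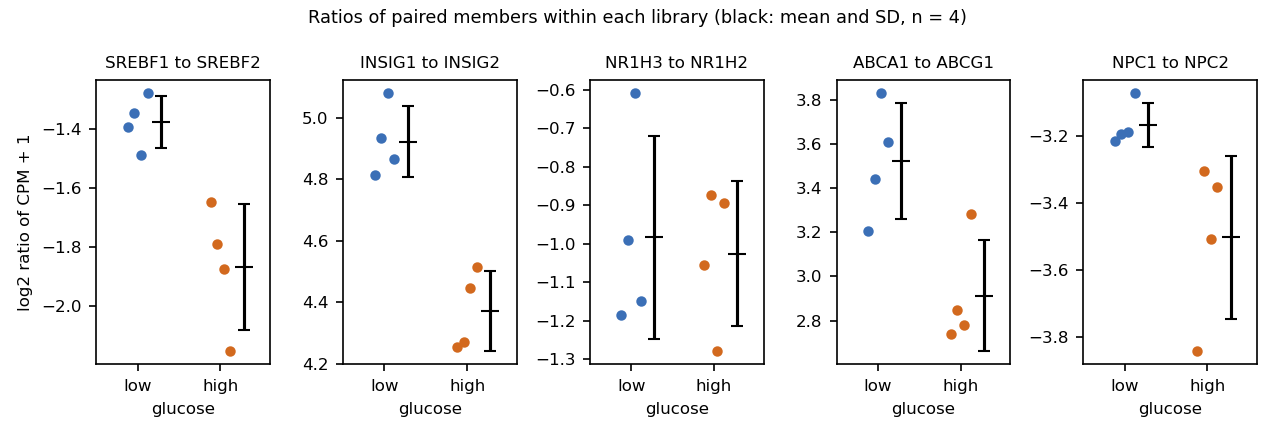
Log2 ratio of CPM + 1 between partner genes in each library (y axis, a separate scale in each panel) at low and high glucose (x axis), with 4 points per group and the mean and SD (n = 4) in black beside them. The groups are apart for SREBF1 to SREBF2, INSIG1 to INSIG2 and NPC1 to NPC2 and overlap for NR1H3 to NR1H2 and ABCA1 to ABCG1.

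Genes around the 32 members were counted in 7 lists drawn from general knowledge of the pathway. These lists, too, were chosen with earlier results of these data known, so their counts are a description only. Of the SREBP targets in fatty acid synthesis, 11 of 16 genes were lower and 1 was higher, with a median log2 change of -0.56. In it ACSS2, which makes acetyl-CoA from acetate, fell from 243 ± 3.36 to 106 ± 4.27 CPM (log2 change -1.19), and SCD, the stearoyl-CoA desaturase, fell from 1973 ± 17.0 to 855 ± 41.4 CPM (log2 change -1.21). ACLY, which makes acetyl-CoA from citrate, fell by 0.55 on the log2 scale. Of 9 electron donors and auxiliary proteins of sterol synthesis, 5 were lower and none higher, with a median of -0.24. ERG28, a scaffold of the demethylation complex, fell from 119 ± 3.23 to 65.1 ± 6.65 CPM (log2 change -0.86), FAXDC2 by 1.16 and AACS, a synthetase of acetoacetyl-CoA, by 0.40 on the log2 scale. Oxysterol production and clearance had 6 of 9 genes lower and none higher, with a median of -0.67. Only 4 of these 9 genes had a mean of at least 5 CPM, the level of the shares that the lists are set beside. Among them CYP46A1, which hydroxylates cholesterol at carbon 24, fell from 5.62 ± 1.07 to 2.24 ± 0.367 CPM (log2 change -1.02).

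The branches that draw on farnesyl diphosphate for other products held genes called in both directions. Of 19 genes of the isoprenoid branches (dolichol, ubiquinone and protein prenylation), 10 were higher and 7 lower, with a median log2 change of 0.18. DOLPP1, a dolichyl diphosphatase, rose from 27.3 ± 1.93 to 53.4 ± 2.43 CPM (log2 change 0.94), and RABGGTB, a subunit of the enzyme that prenylates Rab proteins, rose by 0.55 on the log2 scale. RABGGTA, another subunit of that enzyme in the same list, fell from 12.4 ± 0.771 to 7.75 ± 1.17 CPM (log2 change -0.63). Of 27 genes of SREBP processing and sterol-driven degradation, 14 were higher and 8 lower, with a median of 0.25. C12orf49, a regulator of the protease that cuts SREBP, rose from 57.1 ± 3.16 to 138 ± 4.59 CPM (log2 change 1.26). RNF139, an E3 ligase of the endoplasmic reticulum, rose by 0.88 on the log2 scale, and ERLIN2, a membrane scaffold of the same compartment, fell by 0.45.

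Of 15 lipoprotein receptors and genes of lysosomal handling, 4 were higher and 8 lower, with a median log2 change of -0.24. LIPA, the lysosomal acid lipase that frees cholesterol from its esters, fell from 237 ± 5.97 to 136 ± 3.12 CPM (log2 change -0.80), and its product works in the same compartment as NPC2. LAMP1, a lysosomal membrane protein, rose by 0.78, and TMEM97, a regulator of NPC1, rose by 0.52 on the log2 scale. Of 25 genes of sterol transfer, storage and export, 10 were higher and 8 lower, with a median of 0.10. NCEH1, a hydrolase of cholesteryl esters, rose from 2.79 ± 0.306 to 14.4 ± 1.54 CPM (log2 change 2.02), so a transcript for the formation of esters (SOAT1) and another for their hydrolysis rose together. GRAMD1A, a carrier of sterols from the plasma membrane, fell by 0.81 on the log2 scale. These lists were counted beside the shares over the genes of at least 5 CPM given above (33.3% lower and 33.6% higher), and no test of a list was made.

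**Figure D5:**
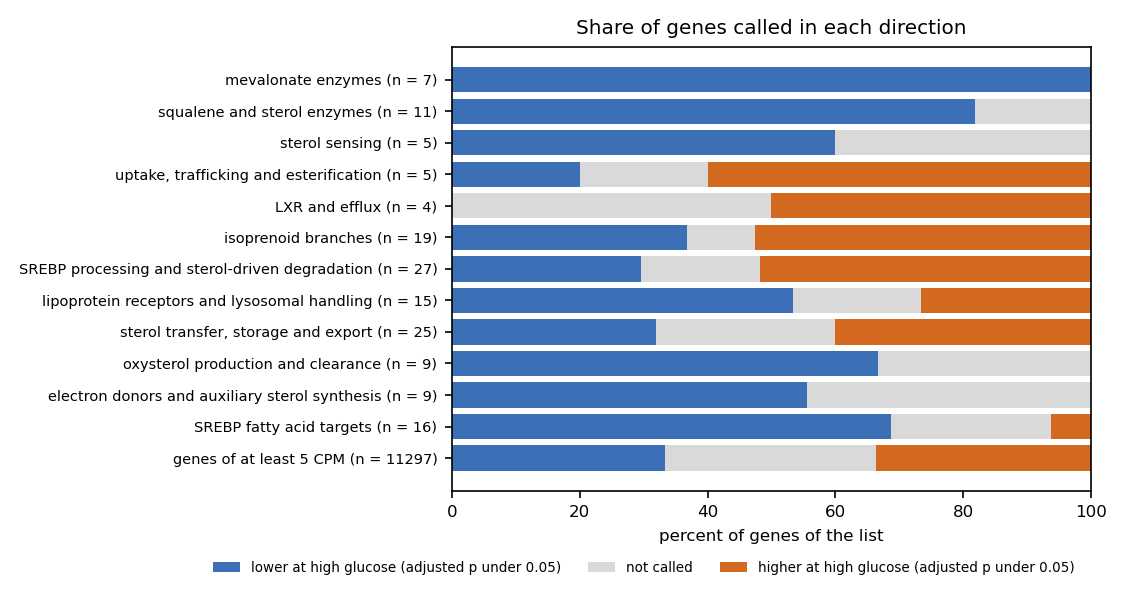
Share of genes called lower (blue), not called (grey) or called higher (orange) at high glucose (x axis, percent of the genes of each list found in the table) for the 5 groups of members, 7 further lists and the 11297 genes of at least 5 CPM (y axis). The 2 groups of enzymes are 100% and 81.8% lower with none higher, while the genes of at least 5 CPM are split evenly, at 33.3% lower and 33.6% higher.

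Some members share sequence or position with other genes, and their values are uncertain to that extent, since how the reads were counted and whether strand was used are not given in the sources used here. Of the 31-base words of HSD17B7, 65.5% also occur in another gene, with the largest share in the pseudogene HSD17B7P2. For FDPS this share was 20.3%, the largest part of it with FDPSP5, and 41.4% of its exon bases lie opposite RUSC1-AS1, which was at 7.79 CPM at low glucose and 5.18 CPM at high glucose. CYP51A1 shares 91.5% of its words with a locus annotated on the same strand (ENSG00000285772), which was at 0.0731 CPM at low glucose and listed at 0 at high glucose, and EBP shares 55.9% with ENSG00000286268. Of the exon bases of ACAT2, 36.3% lie opposite other genes, among them TCP1, which was higher at high glucose (142 against 224 CPM), and 46.7% of those of HMGCS1 lie opposite ENSG00000261604, at 7.07 against 4.52 CPM. For LSS this share was 11.7%, and MVK, MVD, NSDHL, DHCR7, INSIG1, FDFT1 and SQLE had no such overlap in the annotation.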

How the data were processed

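RNA sequencing was done on 8 libraries of MDA-MB-157 cells, 4 at 5 mM and 4 at 25 mM glucose, and groups and replicate numbers were taken from the labels. The authors deposited 1 table of CPM, which already carry normalization factors (trimmed mean of M values) that the authors computed in edgeR. Their methods, in a section written first for tumors, also name a filter of low CPM, but 856 genes were at 0 in every library of this table. The labels list the build hg38, the study's methods name hg19, and the counting tool is not given in the sources used here. Of the values below 200 reads, 72.0% to 73.3% came out as whole reads within 0.005, so reads were not recovered and no count model was used. The 18 copies of genes on chromosome Y, identical to their X copies, were left out.

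High glucose was compared with low glucose on log2(CPM + 1) by a linear model per gene in limma 3.58.1 (R 4.3.3) without covariates, moderated with a trend of variance on level and tested on both sides, with Benjamini-Hochberg adjustment over 21059 genes and a threshold of 0.05, and tested on simulated data. The steps of CPM gave the estimated reads. Ratios between members were compared with an exact permutation test. Transcript lengths, overlaps and shared words are from GENCODE on GRCh37 and describe the annotation, not the alignment. Promoters are from RefSeq on GRCh38.p14 and were matched by gene symbol. All members are named, with at most 3 genes of each further list, those with the smallest adjusted p, of which 1 is not reported here, and genes named for shared or opposite sequence were chosen after their values were seen. The members and lists were chosen with earlier results of these data known. Alternatives were another pseudocount, filters at 1 and 5 CPM, 2 other scalings, a replicate block, removal of a trend with transcript length, library quality weights and leaving out each library.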

Additional observations from a re-analysis of the deposited data

Results flagged for a closer look

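In 74 groups of 4 libraries (32 members and 5 ratios at each glucose level), 4 held a library whose gap to the others exceeded Dixon's critical value at the 95% level, where chance gives about 1 in 20, or 3.7. At low glucose, LSS in replicate 2 was at 430.745 CPM, against 416.279 to 416.835 CPM in the other 3. The other 3 cases were all high glucose replicate 1, the library that stood apart along transcript length. There EBP was at 142.939 CPM against 111.682 to 113.732 CPM, INSIG1 at 300.56 CPM against 269.916 to 274.927 CPM, and NPC2 at 801.727 CPM against 653.06 to 674.285 CPM. Without this library all 3 genes kept their direction and their call, with log2 changes of -0.64, -0.60 and 0.35.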

How the results depend on the processing

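The log2 changes of the members were recomputed under 16 settings, 509 values in all, of which 480 kept their direction and their side of the threshold, 16 lost and 7 gained the call, and 6 changed sign. These 29 values belong to 6 members (PMVK, HSD17B7, INSIG2, STARD4, NR1H2 and NR1H3), and the other 26 members kept direction and call throughout. INSIG2 changed sign with median-of-ratios scaling (0.031), with equal total scaling (0.015) and without single libraries, where its values ran from -0.084 to 0.055. Over the settings that keep all libraries, 24 to 28 members, 16 to 17 enzymes and 7 to 11 of the others were called, with 8120 to 10462 genes in the table. The values of 7 and 8120 are from the filter at 5 CPM, which left fewer genes to test (11297 genes, with 29 members, 12 of them among the others). Leaving out each library gave 23 to 27 members, 15 to 17 enzymes and 8 to 10 of the others.

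With a pseudocount of 0.1, the ratio of ABCA1 to ABCG1 differed by -1.27 (exact p = 0.0286) instead of -0.61. Leaving out each library gave differences of -0.56 to -0.39 for SREBF1 to SREBF2, -0.40 to -0.22 for NPC1 to NPC2, -0.11 to 0.083 for NR1H3 to NR1H2, -0.60 to -0.50 for INSIG1 to INSIG2 and -0.73 to -0.51 for ABCA1 to ABCG1, and the cause was not tested. Libraries with the same number shared no more than that number, with correlations of their deviations of 0.05, -0.0048, 0.02 and -0.04 over 14372 genes. With the replicate block the differences of -0.49 (SREBF1 to SREBF2), -0.55 (INSIG1 to INSIG2) and -0.34 (NPC1 to NPC2) had only the smallest p that flipping the signs of 4 pairs can give, which is above 0.05, and 24 members and 8921 genes were called. Another scaling moved the median change of genes of at least 1 CPM from -0.04 to -0.0028 or -0.02. The depth limits ABCG1 at low glucose, where few reads stand behind its values.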
